A study of Mus musculus with 18 samples.

Results

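The immunoglobulin genes of the colon were followed across naive mice and mice carrying colitis-associated cancer (CAC). They were chosen by name and by their measured counts: every row of the count table named as an immunoglobulin heavy, kappa or lambda constant or variable gene, or as Jchain, was taken if it had at least 10 counts summed over all libraries. Of 383 rows that matched by name, out of 47729 in the table, 172 passed. One of them, Ighmbp2, is a DNA helicase gene on chromosome 19 whose symbol only begins like a heavy chain gene, and it was set aside. The remaining 171 genes were 8 heavy chain constant genes, the kappa constant gene Igkc, 3 lambda constant genes, Jchain, 77 Ighv genes of 185 listed, 78 Igkv genes of 160 listed and all 3 Iglv genes. Of the 211 rows under the minimum, 148 had no count in any library, and the 20 D segments were all among the 211. Igkv4-70, with 9 counts, lay just outside the minimum. Ighv1-71, with 10 counts, and Ighv1-47 and Ighv9-1, with 11 each, lay just inside.

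Colon RNA of 9 mice was sequenced, 3 in each of 3 groups, and each library was run on 2 lanes. Naive WT mice (1 to 3) carried the label WT and the treatment label Control. WT CAC mice (4 to 6) were WT mice that had received azoxymethane (AOM), a colon carcinogen, and dextran sulfate sodium (DSS), which injures the colonic epithelium. Cldn2TG CAC mice (7 to 9) carried the label Claudin-2TG and received the same AOM-DSS course, with the Cldn2 transgene driven in the intestinal epithelium by the Villin promoter. All mice were on the C57BL/6 background. No naive Cldn2TG mouse was analysed here, so an effect of the transgene without AOM-DSS could not be measured. In whole colon RNA, fewer plasma cells and less immunoglobulin RNA per cell cannot be told apart.

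Plasma cells are B cells that have turned most of their transcription over to secreted antibody. Each joins one heavy chain V, D and J segment and one kappa or lambda V and J segment, and places them before a constant gene that sets the isotype. IgM and IgD mark naive B cells, and class switching moves the heavy chain V region to Ighg, Ighe or Igha. Most plasma cells of the gut lamina propria make IgA, whose dimers are held together by the J chain and carried into the lumen by the polymeric Ig receptor of the epithelium. Because each plasma cell clone keeps its own V genes, V gene counts in tissue RNA reflect both the number of clones and the output of each.

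The germline 3′ coding ends of a selection of V genes that led in a mouse or passed a test between groups, and of Ighv1-5, which came next after the leading gene in mouse 4, are printed 5′ to 3′ because these bases open the third complementarity determining region, the part of an antibody most varied between clones. The capitals mark the codon of the conserved cysteine, after which the germline V gene ran out within a few bases in Ighv genes and later in light chain genes. The sequences come from the GENCODE M21 transcripts on build GRCm38.
Ighv1-26: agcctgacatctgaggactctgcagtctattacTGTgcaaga
Ighv1-64: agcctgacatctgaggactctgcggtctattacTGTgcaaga
Ighv6-3: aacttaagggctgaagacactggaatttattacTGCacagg
Ighv1-5: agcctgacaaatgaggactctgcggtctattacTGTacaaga
Igkv10-96: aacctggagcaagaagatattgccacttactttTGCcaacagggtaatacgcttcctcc
Igkv12-41: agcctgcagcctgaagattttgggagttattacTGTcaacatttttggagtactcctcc
Igkv16-104: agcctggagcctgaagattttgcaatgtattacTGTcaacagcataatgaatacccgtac
Igkv1-110: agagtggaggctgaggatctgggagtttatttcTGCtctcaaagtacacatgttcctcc
Iglv1: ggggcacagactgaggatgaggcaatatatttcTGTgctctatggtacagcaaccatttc
Iglv2: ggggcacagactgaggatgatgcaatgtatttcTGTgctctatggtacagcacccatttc

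The Ighv genes lie on chromosome 12, with Ighv1-26 at chr12:114788372-114788805, Ighv6-3 at chr12:114391712-114392169 and Ighv1-64 at chr12:115507545-115508031, all on the minus strand. The Igkv genes lie on chromosome 6, with Igkv10-96 at chr6:68631963-68632442 on the minus strand and Igkv16-104 at chr6:68425575-68426072 on the plus strand. Iglv1 lies at chr16:19085017-19085500 on the minus strand. Many V genes are near copies of each other. Of all 50-base words in a member's transcript, a median of 78.9% occurred in no other immunoglobulin transcript, and in 19 of the 171 genes under 50% did. For Ighv1-26 this share was 51.0%, for Igkv1-110 49.1%, for Igkv10-96 67.4% and for Ighv6-3 86.0%. How reads matching several genes were counted is not given in the sources used here, so levels of single V genes with low shares are uncertain. In heavy chain constant genes at least 94.5% of these words were their own.

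The lambda constant genes show the same problem at a smaller scale, and the start of each is printed from a point the genes share. Capitals mark positions at which the genes are not all alike.
Iglc1: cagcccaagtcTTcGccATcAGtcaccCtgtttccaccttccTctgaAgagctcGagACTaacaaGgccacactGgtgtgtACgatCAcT
Iglc2: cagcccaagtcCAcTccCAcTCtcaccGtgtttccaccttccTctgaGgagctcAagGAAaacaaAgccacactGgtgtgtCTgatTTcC
Iglc3: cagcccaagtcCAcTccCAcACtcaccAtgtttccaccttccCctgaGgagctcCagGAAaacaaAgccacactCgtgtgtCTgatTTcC
Iglc2 and Iglc3 differed at 5 of these 90 bases and by 11 edits over 300 coding bases. Iglc1 differed from Iglc2 at 19 of the 90 and from Iglc3 at 20. How reads were split between Iglc2 and Iglc3 is uncertain.

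The libraries held 14142711 to 22262546 counts, and 3 counts corresponded to between 0.129 and 0.220 CPM, the unit that scales each count to the total of its library after TMM adjustment. Of 14 B cell markers, the summed level lay at 58.6, 16.3 and 17.2 CPM in naive WT mice 1 to 3, at 99.7, 53.0 and 74.4 CPM in WT CAC mice 4 to 6, and at 23.5, 38.7 and 11.1 CPM in Cldn2TG CAC mice 7 to 9. Mouse 1 was thus above naive mice 2 and 3 but within the range of WT CAC. It stood apart from all other mice in Xist, the RNA of the inactive X chromosome, with 214.4 CPM against at most 0.204 CPM in the other mice. By this RNA mouse 1 reads as female and the other mice as male. Naive WT was thus of mixed sex and both AOM-DSS groups were male, although the paper states that mice were matched for sex. What part sex had in the values of mouse 1 was not tested. Of the marker lists, epithelial genes had summed levels of 13368.5 to 19560.9 CPM and smooth muscle genes of 973.5 to 4069.6 CPM, so the samples held mucosa and muscle.

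Summed over the 171 genes, immunoglobulin RNA took 452.0, 371.4 and 839.2 CPM in naive WT mice 1 to 3. In WT CAC mice 4 to 6 it took 1399.7, 4026.6 and 3507.6 CPM. In Cldn2TG CAC mice 7 to 9 it took 761.0, 134.8 and 206.1 CPM. Each WT CAC mouse lay above each mouse of the other groups, and mouse 4 was the lowest of the 3. On the log2 scale WT CAC exceeded naive WT by 2.38, and the difference of Cldn2TG CAC from WT CAC was -3.29 (each p = 0.1 in a two-sided exact permutation test, the smallest p that 3 mice against 3 allow; Benjamini-Hochberg adjusted p = 0.367 over 33 such tests). Cldn2TG CAC was lower than naive WT by a log2 difference of -0.91, and here the groups overlapped through mouse 7 (exact permutation p = 0.3, adjusted p = 0.619). Leaving out single mice, the first of these differences ran from 2.09 to 2.85, the second from -4.02 without mouse 7 to -2.77 without mouse 8, and the third from -1.64 to -0.39 without the same mice. The 3 Cldn2TG CAC mice differed among themselves by more than their mean differed from naive WT, from 134.8 CPM in mouse 8 to 761.0 CPM in mouse 7. Since the members were picked on counts summed over all mice, to which the WT CAC mice gave the most, these sums are a description.

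Igha, which encodes the constant region of IgA (chr12:113254830-113260236), was the leading heavy chain gene in every mouse. It stood at 178.9, 173.5 and 374.8 CPM in naive WT, at 565.1, 2065.7 and 1772.9 CPM in WT CAC, and at 392.0, 37.2 and 76.3 CPM in Cldn2TG CAC. The WT CAC mice did not overlap with either of the other groups, although mouse 4 stood closer to naive mouse 3 and transgenic mouse 7 than to its own group. Igha rose in WT CAC against naive WT by 2.61 ± 0.55 on the log2 scale (SE, edgeR quasi-likelihood test, Benjamini-Hochberg adjusted p = 0.0280), a call lost without any of mice 1, 2, 3, 5 or 6 (adjusted p up to 0.104) and kept without mouse 4 (0.00342). Against WT CAC, Cldn2TG CAC gave a log2 difference of -3.13 ± 1.0 that did not pass (edgeR adjusted p = 0.115).

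Jchain (chr5:88519809-88527891) was highest in the same mice as Igha. Its level was 41.8, 36.7 and 87.8 CPM in naive WT, 191.3, 425.7 and 393.3 CPM in WT CAC, and 96.5, 22.0 and 35.9 CPM in Cldn2TG CAC. It rose in WT CAC against naive WT by 2.61 ± 0.44 on the log2 scale (edgeR adjusted p = 0.0163; up to 0.0698 without mouse 1 or 2). It fell by 2.72 ± 0.61 in Cldn2TG CAC against WT CAC (edgeR adjusted p = 0.0412), a call lost without mouse 4, 5, 6, 8 or 9 (up to 0.146) and kept without mouse 7 (0.0291). Against naive WT its log2 difference in Cldn2TG CAC was -0.11 ± 0.72 (edgeR adjusted p = 0.945), and turned to 0.39 without mouse 3, 0.26 without mouse 8 and 0.08 without mouse 9.

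Igkc, the single kappa constant gene (chr6:70726435-70726966), had 105.6, 99.7 and 194.1 CPM in naive WT, 329.3, 1000.6 and 869.8 CPM in WT CAC, and 189.9, 35.2 and 55.2 CPM in Cldn2TG CAC. Its rise in WT CAC was 2.47 ± 0.47 on the log2 scale (edgeR adjusted p = 0.0206; up to 0.0877 without mouse 1, 2 or 6). The difference of Cldn2TG CAC from WT CAC was -2.98 ± 0.75, just short of the threshold (edgeR adjusted p = 0.0574). Scaled by gene length, Igkc was the most abundant of these RNAs, with a mean of 1378.3 CPM per kilobase in WT CAC against 550.2 for Igha and 133.8 for Jchain. In naive WT the same order held, with 250.2, 90.9 and 22.0 CPM per kilobase.

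**Figure D1:**
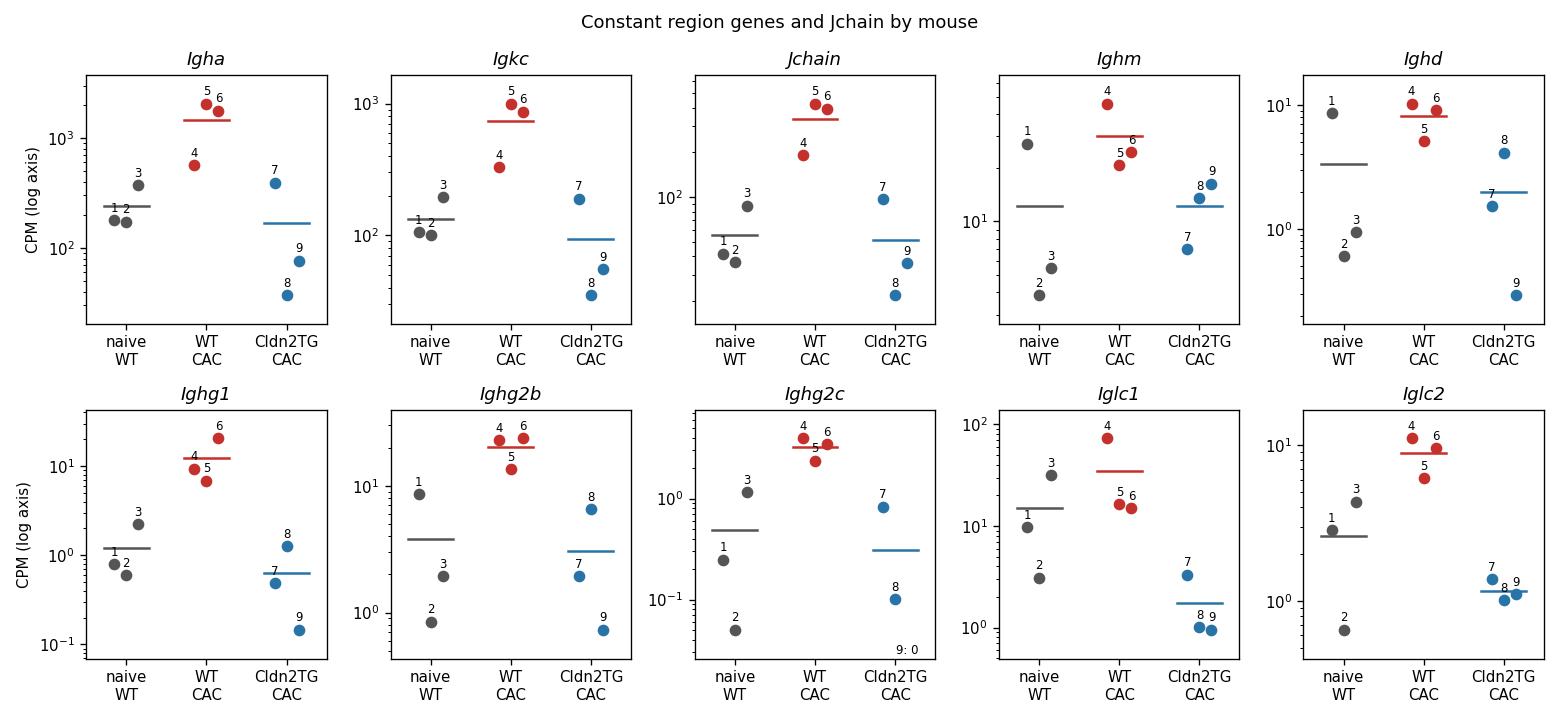
Levels of 9 constant region genes and Jchain in CPM on log axes, with a numbered point for each mouse and a line at the group mean. Mouse 9 had 0 for Ighg2c, written at the foot of that panel. The 3 WT CAC mice lie above every Cldn2TG CAC mouse in each panel, and mice 1 and 8 stand high within their groups for Ighd and Ighg2b.

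Ighm had 27.3, 3.86 and 5.46 CPM in naive WT, 45.9, 20.7 and 24.4 CPM in WT CAC, and 6.97, 13.5 and 16.3 CPM in Cldn2TG CAC. WT CAC overlapped with naive WT through mouse 1. The fitted log2 differences did not pass: 1.32 ± 0.75 for WT CAC against naive WT (edgeR adjusted p = 0.270) and -1.30 ± 0.39 for Cldn2TG CAC against WT CAC (0.0842). Without mouse 1 the first of these was past the threshold (0.0323). Ighd, expressed together with Ighm by naive B cells, read 8.56, 0.601 and 0.946 CPM in naive WT, 10.3, 5.13 and 9.10 CPM in WT CAC, and 1.52, 4.13 and 0.293 CPM in Cldn2TG CAC. Mouse 1 was again the high naive mouse, and no comparison of Ighd passed the test (edgeR adjusted p of 0.379, 0.137 and 0.791).

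The mice high in Ighd were those high in B cell markers. Ms4a1, which encodes the B cell surface protein CD20, had 7.16 CPM in mouse 1 against 0.651 and 1.12 CPM in mice 2 and 3. In WT CAC it had 9.19, 6.05 and 10.9 CPM, and in Cldn2TG CAC 2.35, 4.53 and 0.659 CPM. Mouse 9 was an exception to this pairing for IgM: its Ighm level was the highest of its group while its Ighd level and Ms4a1 level were the lowest. The part of B cells, as against IgM plasma cells, in the Ighm level was not tested.

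Ighg1, the IgG1 constant gene, and Jchain passed both in WT CAC against naive WT and in Cldn2TG CAC against WT CAC. Ighg1 had 0.796, 0.601 and 2.24 CPM in naive WT, 9.35, 6.84 and 20.5 CPM in WT CAC, and 0.483, 1.26 and 0.146 CPM in Cldn2TG CAC. WT CAC stood above naive WT by 3.31 ± 0.61 on the log2 scale (edgeR adjusted p = 0.0185; up to 0.0746 without mouse 1 or 2). Cldn2TG CAC fell by 4.17 ± 0.68 against WT CAC (edgeR adjusted p = 0.0133; up to 0.0682 without mouse 7 or 9).

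Ighg2b, the most abundant IgG gene here, had 8.61, 0.851 and 1.93 CPM in naive WT, 23.0, 13.5 and 23.7 CPM in WT CAC, and 1.93, 6.54 and 0.732 CPM in Cldn2TG CAC. WT CAC did not overlap with the other groups, but neither comparison passed (log2 difference 2.41 ± 0.76, edgeR adjusted p = 0.0777; and -2.66 ± 0.67, 0.0544). Ighg2c, the C57BL/6 counterpart of Ighg2a, had 3.95, 2.37 and 3.46 CPM in WT CAC, between 0.0501 and 1.16 CPM in naive WT and between 0 and 0.829 CPM in Cldn2TG CAC. It fell by 3.41 ± 0.81 in Cldn2TG CAC against WT CAC (edgeR adjusted p = 0.0365; up to 0.151 without mouse 5, 6, 8 or 9), and its difference of WT CAC from naive WT was 2.69 ± 0.75 (0.0508).

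Ighg3 came mostly from mouse 4. It had 176 counts in mouse 4 against 30 and 15 in mice 5 and 6, and 26, 1 and 1 in naive WT. The Cldn2TG CAC mice had 1, 0 and 0 counts, at or below a limit of 3 counts per library. Measured against that limit, the group was at least 19.9-fold lower than WT CAC, or at least 6.06-fold without mouse 4, and the edgeR adjusted p was 0.0286 (up to 0.151 without mouse 7, 8 or 9). Ighe, the IgE gene, had 15 counts in all: 2, 8 and 3 in WT CAC, 1, 0 and 1 in Cldn2TG CAC and none in naive WT. It was too low to enter any test.

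**Figure D2:**
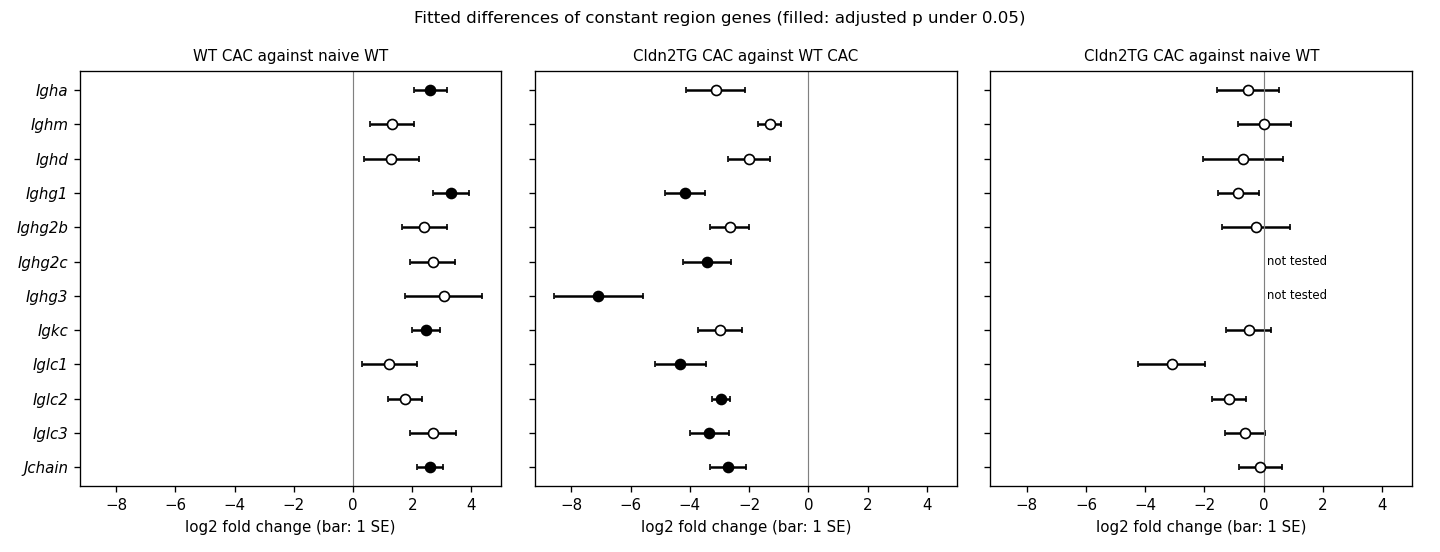
Fitted log2 fold changes of 11 constant genes and Jchain in the 3 comparisons, with bars of 1 SE and filled points where the edgeR adjusted p was under 0.05. The fits lie above 0 in WT CAC against naive WT and below 0 in Cldn2TG CAC against WT CAC, while the bars of most genes cross or approach 0 in Cldn2TG CAC against naive WT.

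Iglc1 was the lambda constant gene with the highest mean level. It had 9.70, 3.10 and 31.9 CPM in naive WT, 73.0, 16.5 and 15.1 CPM in WT CAC, and 3.31, 1.01 and 0.951 CPM in Cldn2TG CAC. Mouse 4, low in Igha, was the highest here, and naive mouse 3 exceeded mice 5 and 6. Iglc1 fell by 4.33 ± 0.86 in Cldn2TG CAC against WT CAC (edgeR adjusted p = 0.0293; up to 0.120 without mouse 5, 7, 8 or 9), and its difference of WT CAC from naive WT was 1.22 ± 0.93 (0.405). Iglc2 fell by 2.95 ± 0.31 in Cldn2TG CAC against WT CAC, from 11.1, 6.18 and 9.64 CPM to 1.38, 1.01 and 1.10 CPM (edgeR adjusted p = 0.00420), and it passed whichever mouse was left out (up to 0.0430). Iglc3, close to it in sequence, fell by 3.34 ± 0.66 (edgeR adjusted p = 0.0191; up to 0.0929 without mouse 7, 8 or 9).

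Isotype shares differed widely between mice of a group. Igha made up 79.3%, 96.7% and 97.0% of heavy chain constant counts in naive WT mice 1 to 3, 84.7%, 97.6% and 95.6% in WT CAC mice 4 to 6, and 97.1%, 59.3% and 81.3% in Cldn2TG CAC mice 7 to 9. In each group a mouse near 97% stood beside one or more with a lower share. Ighm took 12.1%, 2.15% and 1.41% in naive WT, 6.88%, 0.980% and 1.31% in WT CAC, and 1.73%, 21.5% and 17.4% in Cldn2TG CAC. The 4 Ighg genes together took 4.85%, 0.865% and 1.39% in naive WT, 6.82%, 1.14% and 2.62% in WT CAC, and 0.821%, 12.6% and 0.936% in Cldn2TG CAC.

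The exact binomial 95% intervals of these heavy chain shares reached at most 2.77 percentage points to either side and cover counting error only, so the gap between the highest and lowest Igha share within each group was larger than counting error. No group difference in these shares could have passed. The smallest p of the exact permutation test with 3 mice against 3 is 0.1, so it cannot decide whether isotype shares differed. The mean Igha share was 91.0% ± 10.1 (SD, n = 3) in naive WT, 92.6% ± 6.92 in WT CAC and 79.2% ± 19.0 in Cldn2TG CAC, with exact permutation p values of 0.8, 0.3 and 0.7 for WT CAC against naive WT, Cldn2TG CAC against WT CAC and Cldn2TG CAC against naive WT. The mean of Cldn2TG CAC moved most with mouse 8: without it the share differed by -3.47 percentage points from WT CAC and by -1.79 from naive WT, and without mouse 7 by -22.3 and -20.7. For Ighm the exact permutation p values in the same order were 0.5, 0.2 and 0.3, and for Ighg 0.6, 1.0 and 0.9. Without mouse 8 the Ighg share of Cldn2TG CAC lay below that of WT CAC by 2.65 percentage points, where with it the share lay above by 1.26. Jchain counts per 100 Igha counts, a measure added after the values were seen, were 22.6 ± 1.31 in naive WT, 25.5 ± 7.24 in WT CAC and 43.7 ± 17.6 in Cldn2TG CAC, highest at 59.3 and 47.1 in mice 8 and 9, the mice with the least Igha. Its exact permutation p values were 0.9, 0.2 and 0.1.

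Lambda genes, constant and variable together, made up 13%, 4.31% and 18.2% of light chain counts in naive WT, 23.0%, 2.91% and 4.73% in WT CAC, and 3.02%, 6.87% and 4.02% in Cldn2TG CAC. The highest share was thus in a WT CAC mouse, 4, and so was the lowest, in mouse 5. The group means were 11.8% ± 7.01, 10.2% ± 11.1 and 4.63% ± 2.0 (SD, n = 3), with exact permutation p values of 0.9, 0.7 and 0.2 in the order above. Without mouse 4 the mean of WT CAC lay 0.815 percentage points below that of Cldn2TG CAC rather than above it.

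**Figure D3:**
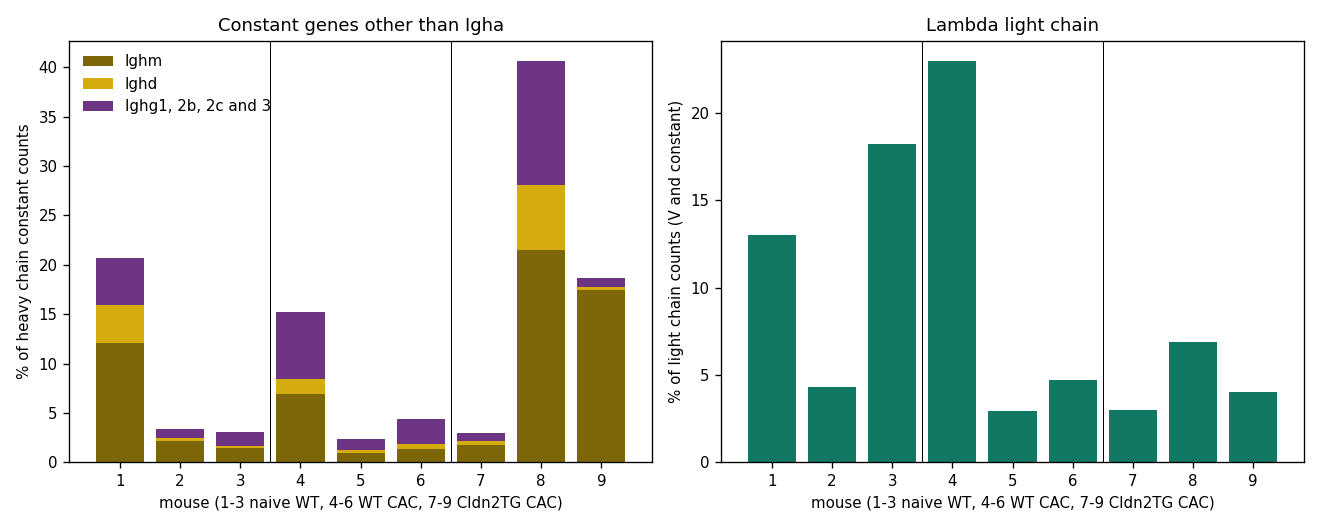
Left, the shares of heavy chain constant counts that were Ighm, Ighd or one of the 4 Ighg genes, stacked, in percent for each mouse; right, the lambda share of light chain counts. Mice 1, 4, 8 and 9, from all 3 groups, stand out on the left, and naive mice 1 and 3 and WT CAC mouse 4 on the right; counting intervals are not drawn.

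In WT CAC against naive WT, 84 members passed the filter on low counts, and 12 of them were higher and 0 lower by edgeR; over all genes tested, 8.04% were called higher and 6.92% lower. At an unadjusted p under 0.05 the members gave 40 higher and 0 lower, and DESeq2 called 34 higher and 0 lower. Between Cldn2TG CAC and WT CAC, 57 passed the filter, of which 24 were lower and 0 higher by edgeR, against 7.35% of all genes lower and 2.19% higher. Here 46 were lower and 0 higher at an unadjusted p under 0.05, and DESeq2 called 41 lower and 0 higher. Between Cldn2TG CAC and naive WT, 37 passed the filter, of which 9 were lower and 0 higher by edgeR, against 6.07% and 3.92% of all genes; 14 were lower and 0 higher at an unadjusted p under 0.05, and DESeq2 called 11 lower and 0 higher. By class, 4 of 12 constant genes (Jchain counted among them), 2 of 32 Ighv and 6 of 38 Igkv genes tested rose in WT CAC against naive WT. Of those tested between Cldn2TG CAC and WT CAC, 7 of 12 constant genes, 5 of 16 Ighv, 10 of 27 Igkv and 2 of 2 Iglv genes fell. Between Cldn2TG CAC and naive WT, 3 of 9 Ighv and 6 of 17 Igkv genes fell but 0 of 10 constant genes passed (edgeR; 1, Iglc1, was lower at an unadjusted p under 0.05 and by DESeq2). Since a member could pass the filter through the group in which it was high, nothing is read from these shares. The counts rose most without mouse 4, where 77 of 117 members tested were called in WT CAC against naive WT and 77 of 101 in Cldn2TG CAC against WT CAC. Calls over all genes rose as well without mouse 4, from 2310 to 4080 and from 1421 to 2894, so the change was not limited to the members. Without mouse 1, 3 or 6 the first count was 7, and without mouse 2 it was 3. The second was 4 without mouse 8, 3 without mouse 9 and 15 without mouse 5, where calls over all genes numbered 58, 108 and 555. Between Cldn2TG CAC and naive WT the count was 4 without mouse 1, 2 without mouse 3 or 8, and 3 without mouse 9. This count was 11 of 37 with DESeq2 and 32 of 171 with no filter on low counts, but 1 of 87 with all 9 libraries in the fit. With at least 10 counts in every library 0 of 7 were called, and on single lanes 2 of 17 and 1 of 15, where fewer members were tested.

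Over all 171 genes, tested or not, the CPM of the 3 WT CAC mice lay above all naive WT mice in 51 genes (29.8%) and below them in 1 (0.585%), where 17.7% and 16.0% of all genes with at least 10 counts did so. In Cldn2TG CAC, 76 genes (44.4%) lay below all WT CAC mice and 0 above, against 14.6% and 10.7% of all genes. Against naive WT, 33 (19.3%) lay below and 1 (0.585%) above, against 14.6% and 12.9%. These counts are a description, because the summed minimum favored genes high in WT CAC. All 13 constant genes, counting Jchain, were below WT CAC in each Cldn2TG CAC mouse.

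By mean CPM the leading Ighv genes were Ighv1-64, Ighv1-82, Ighv3-6, Ighv1-26 and Ighv5-17. Ighv1-64 had 14.7 and 6.11 CPM in mice 5 and 6 but 0.519 CPM in mouse 4, below naive mouse 3 with 0.817 CPM, and its log2 difference of WT CAC from naive WT, 3.75 ± 1.08, did not pass (edgeR adjusted p = 0.0593). Ighv1-82 overlapped between all groups, with 3.73 ± 2.51 CPM in WT CAC, 2.29 ± 2.59 CPM in naive WT and 0.754 ± 0.963 CPM in Cldn2TG CAC (SD, n = 3), and no comparison passed (edgeR adjusted p of 0.635, 0.204 and 0.447). Ighv1-26 was the leading Ighv gene in naive mouse 1 and in Cldn2TG CAC mice 7 and 9. It had 4.21 CPM in mouse 7, above each WT CAC mouse, and 0 in mouse 8, and none of its comparisons passed (edgeR adjusted p of 0.570, 0.835 and 0.970).

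Ighv3-6 and Ighv5-17 were lower in Cldn2TG CAC than in both other groups. Ighv3-6 had 1.39, 0.851 and 2.54 CPM in naive WT, 0.623, 6.84 and 6.59 CPM in WT CAC, and 0.414, 0 and 0.146 CPM in Cldn2TG CAC. It fell by 4.72 ± 1.17 against WT CAC (edgeR adjusted p = 0.0499) and by 3.18 ± 0.76 against naive WT (0.0304), on the log2 scale; the first call was lost without mouse 6, 7, 8 or 9 (up to 0.168) and the second without mouse 1, 3, 8 or 9 (up to 0.104). Ighv5-17 fell by 4.29 ± 0.97 against WT CAC (edgeR adjusted p = 0.0342; up to 0.145 without mouse 5, 6, 7, 8 or 9) and by 2.72 ± 0.72 against naive WT (edgeR adjusted p = 0.0426; up to 0.153 without mouse 1, 3, 8 or 9). Ighv9-3 fell by 4.42 ± 0.96 against WT CAC (edgeR adjusted p = 0.0295; up to 0.136 without mouse 5, 6, 7, 8 or 9).

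In WT CAC against naive WT, Ighv1-9 and Ighv1-66 rose. Ighv1-9 had 0.497, 0.451 and 0.301 CPM in naive WT and 0.935, 2.24 and 8.90 CPM in WT CAC, with a log2 fold change of 3.25 ± 0.85 (edgeR adjusted p = 0.0430; up to 0.141 without mouse 1, 2, 3, 5 or 6). Ighv1-66 had a log2 fold change of 3.13 ± 0.60 (edgeR adjusted p = 0.0185; up to 0.0750 without mouse 1, 2, 3 or 5).

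As shares of a mouse's Ighv counts, the V genes differed strongly between mice of a group. In mouse 4, Ighv6-3 took 25.8% of 725 Ighv counts (exact binomial 95% interval 22.6% to 29.1%), while its share in the other mice ran from 0.261% to 7.36%. Ighv1-5, named after its values were seen, took a further 19.6% in mouse 4 and at most 2.61% elsewhere. Mouse 4 also held 9.71 CPM of Ighv6-3 against 2.28 and 1.97 CPM in mice 5 and 6, although its total immunoglobulin level was the lowest of WT CAC. Ighv1-64 led in mouse 5 with 8.40%, Ighv1-9 in mouse 6 with 6.30%, Ighv1-82 in naive mouse 3 with 11.5% and Ighv1-18 in naive mouse 2 with 7.57%. In mouse 8, Ighv8-12 led with only 6 of 64 counts, and this gene fell by 3.09 ± 0.81 in Cldn2TG CAC against WT CAC (edgeR adjusted p = 0.0489; up to 0.149 without mouse 6, 7, 8 or 9). In all, 7 different Ighv genes led in the 9 mice, and 16 of the 77 had a count in every mouse.

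Igkv10-96 had the highest mean level of the Igkv genes. It stood at 2.69, 3.66 and 2.02 CPM in naive WT, at 14.2, 16.9 and 27.3 CPM in WT CAC, and at 3.87, 0.151 and 0.293 CPM in Cldn2TG CAC. Mouse 4 was here close to the rest of its group. Igkv10-96 rose in WT CAC by 2.81 ± 0.32 on the log2 scale (edgeR adjusted p = 0.00578) and passed whichever mouse was left out (up to 0.0313), while its difference of Cldn2TG CAC from WT CAC was -3.80 ± 0.98 (0.0632). Igkv12-41 had the largest log2 rise of the V genes called in WT CAC against naive WT. It had 0.398, 0.10 and 0.172 CPM in naive WT, 4.47, 4.78 and 9.58 CPM in WT CAC, and 0.898, 0.503 and 0.0732 CPM in Cldn2TG CAC.

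The log2 fold change of Igkv12-41 was 4.78 ± 0.54 in WT CAC against naive WT (edgeR adjusted p = 0.00504; up to 0.0344 whichever mouse was left out) and -3.64 ± 0.61 in Cldn2TG CAC against WT CAC (0.0125; up to 0.0778 without mouse 8 or 9). Igkv4-91 also passed in both, rising by 3.75 ± 0.53 (edgeR adjusted p = 0.00843; up to 0.0402) and falling by 3.81 ± 0.56 (0.00875; 0.0565 without mouse 8). Both comparisons share the WT CAC mice. Igkv8-19 and Igkv8-28 rose in WT CAC by 4.13 ± 0.75 and 3.21 ± 0.73 (edgeR adjusted p = 0.0163 and 0.0280; up to 0.0774 without mouse 2 or 3, and up to 0.109 without mouse 1, 2, 3, 5 or 6). Each also had 1.73 CPM in Cldn2TG CAC mouse 7, within the range of WT CAC.

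Igkv17-127 and Igkv5-39 fell in Cldn2TG CAC against WT CAC by 4.95 ± 0.89 and 4.67 ± 0.86 on the log2 scale (edgeR adjusted p = 0.0144 and 0.0159; up to 0.0785 without mouse 7, 8 or 9, and up to 0.0931 without mouse 8 or 9). Igkv17-127 was at or under 3 counts in each Cldn2TG CAC mouse, which makes it at least 7.59-fold lower there, or at least 4.44-fold without mouse 5. Igkv14-111, Igkv5-48 and Igkv8-24 fell in Cldn2TG CAC against naive WT, by 2.96 ± 0.64, 2.79 ± 0.64 and 2.70 ± 0.58 (edgeR adjusted p = 0.0175, 0.0262 and 0.0175). The first lost its call without mouse 3 or 8 (up to 0.0814), the second without mouse 3, 7 or 8 (up to 0.0832), and Igkv8-24 without mouse 1 or 9 (up to 0.0609).

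Igkv1-110 was second by mean level. It had 2.19, 2.95 and 8.77 CPM in naive WT, 3.01, 12.9 and 4.35 CPM in WT CAC, and 2.35, 0.252 and 1.46 CPM in Cldn2TG CAC, and no comparison passed (edgeR adjusted p of 0.620, 0.127 and 0.234). Igkv6-15 fell in Cldn2TG CAC by 3.92 ± 0.95 against WT CAC (edgeR adjusted p = 0.0455; up to 0.175 without mouse 5, 6, 7, 8 or 9) and by 2.60 ± 0.63 against naive WT (0.0344; up to 0.124 without mouse 1, 3, 8 or 9). Igkv16-104 was high in a single naive mouse. Mouse 3 had 12.4 CPM, or 18.7% of its Igkv counts, where every other mouse had at most 2.24 CPM. Its log2 difference of WT CAC from naive WT was -1.34 ± 1.21 and turned to 1.69 without mouse 3.

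Across mice, Igkv10-96 led in mice 2, 4, 6 and 7, with 24.2% of Igkv counts in mouse 4 (exact binomial 95% interval 21.7% to 26.8%), 14.0% in mouse 6, 12% in mouse 2 and 10.6% in mouse 7. Igkv6-15 led in mouse 1 with 11.9% and Igkv1-110 in mouse 9 with 13%. Igkv4-57-1 led in mouse 5 with 549 counts, or 8.87%, and had 0 to 38 counts in each other mouse. Igkv9-120 led in mouse 8 with only 12 of 168 counts. In all, 6 different genes led, and 24 of the 78 Igkv genes had a count in every mouse.

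**Figure D4:**
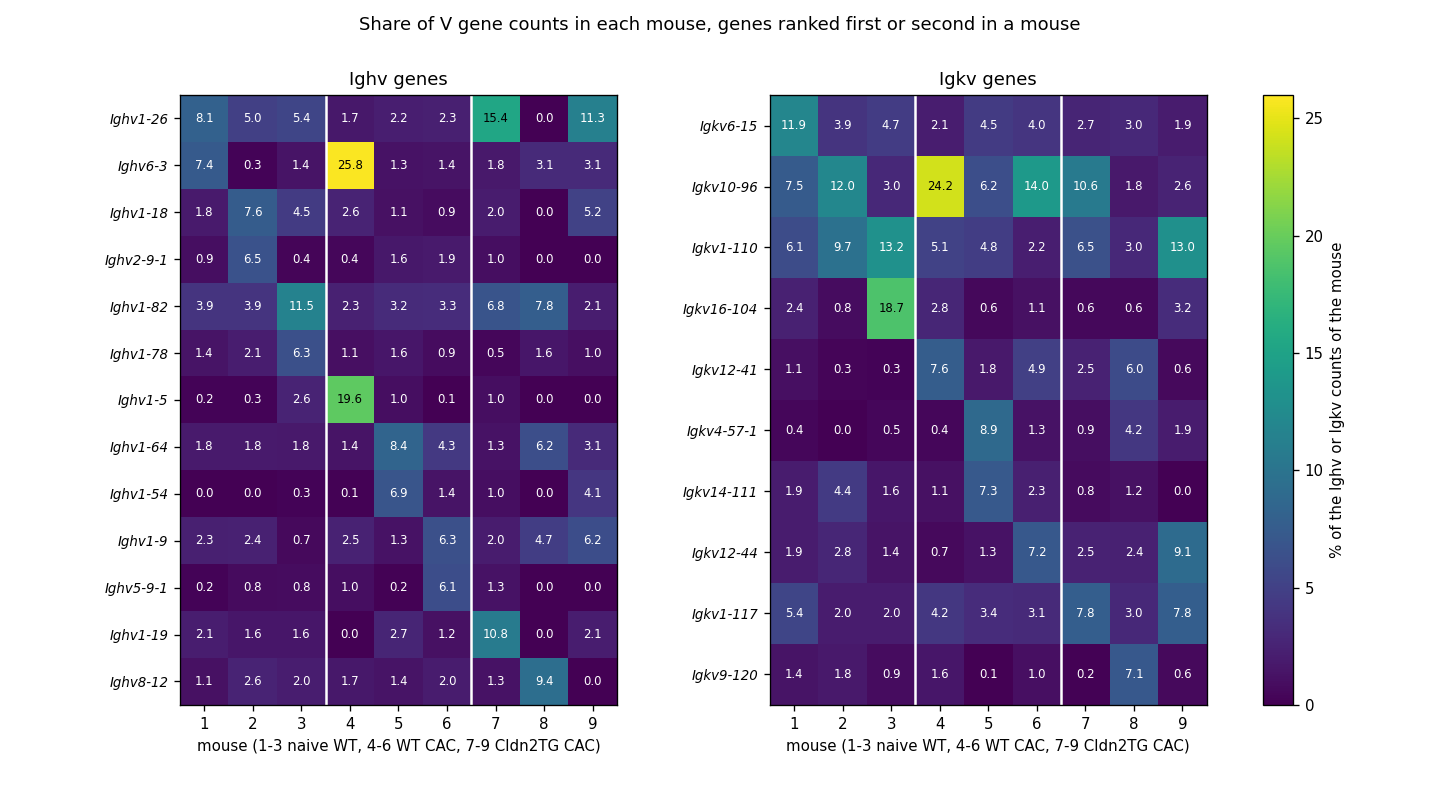
Shares of Ighv counts (left) and Igkv counts (right) in percent for each of the 9 mice (columns), for every gene that took the top or next place in at least one mouse (rows). Mouse 4 stands out for Ighv6-3 (25.8%), Ighv1-5 (19.6%) and Igkv10-96 (24.2%), and mouse 3 for Igkv16-104 (18.7%).

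The mouse has few lambda V genes, and all 3 in the table were members. Iglv1 had 6.12, 1.45 and 18.4 CPM in naive WT, 25.2, 10.6 and 14.5 CPM in WT CAC, and 1.10, 0.402 and 0.293 CPM in Cldn2TG CAC. Against WT CAC it fell by 4.81 ± 0.52 on the log2 scale in Cldn2TG CAC (edgeR adjusted p = 0.00563) and passed whichever mouse was left out (up to 0.0492). Each Cldn2TG CAC mouse was also below each naive mouse, with a log2 difference of -3.87 ± 1.19 that did not pass (edgeR adjusted p = 0.123). Iglv2, whose printed end differs little from that of Iglv1, fell by 3.65 ± 0.69 against WT CAC (edgeR adjusted p = 0.0165; up to 0.0905 without mouse 8 or 9). Iglv3 was too low to enter any test, with 0.0497 to 0.473 CPM in naive WT, 0.364 to 0.745 CPM in WT CAC and 0.101 to 0.146 CPM in Cldn2TG CAC. Iglv1 took 57.1% to 88.6% of Iglv counts in all mice, but those of mice 7 to 9 numbered only 25, 11 and 7.

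The diversity of V genes was compared next. The effective number of V genes, the exponential of the Shannon entropy, says how many equally used genes would give the same evenness; it was taken after thinning each mouse to 64 Ighv and 154 Igkv counts, the least found in a mouse. For Ighv it was 24.6, 28.3 and 23.2 in naive WT, 14.3, 26.2 and 26.8 in WT CAC, and 20.6, 24.9 and 24.4 in Cldn2TG CAC. Mouse 4 had the lowest value, and the others lay between 20.6 and 28.3. For Igkv it was 29.4, 31.8 and 23.7 in naive WT, 23.1, 31.9 and 31.4 in WT CAC, and 31.9, 38.7 and 26.8 in Cldn2TG CAC. Exact permutation p values were 0.8, 1.0 and 0.5 for Ighv and 0.9, 0.4 and 0.4 for Igkv, in the order used above. Without mouse 4 the Ighv difference of WT CAC from naive WT turned from -2.91 to 1.17.

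How far V gene use differed between pairs of mice was measured by the Bray-Curtis distance of Ighv shares, which runs from 0 for equal use to 1 for no shared gene, among the 7 mice with at least 300 Ighv counts after thinning to 383. It was 0.393 to 0.447 between naive mice and 0.444 between mice 5 and 6. Mouse 4 lay at 0.613 and 0.595 from mice 5 and 6 of its own group, and at 0.540 to 0.598 from the naive mice. All pairs between groups lay at 0.431 to 0.606. For Igkv, thinned to 527 counts, the naive pairs lay at 0.356 to 0.482, the pairs within WT CAC at 0.424 to 0.534 and those between groups at 0.381 to 0.547.

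The ratio of V counts to constant counts was computed after the values had been seen. Igkv counts per 100 Igkc counts were 34.1, 30.7 and 34.3 in naive WT, 17.8, 27.1 and 22.4 in WT CAC, and 19.2, 24.0 and 20.4 in Cldn2TG CAC. Every AOM-DSS mouse thus lay below every naive mouse. Ighv counts per 100 heavy chain constant counts were 9.59, 10.7 and 11.9 in naive WT, 5.65, 8.27 and 7.61 in WT CAC, and 6.79, 5.14 and 7.57 in Cldn2TG CAC, again with no overlap between naive and AOM-DSS mice. Each of these 4 comparisons with naive WT had the smallest p the design allows (exact permutation p = 0.1, adjusted p = 0.367), and Cldn2TG CAC did not separate from WT CAC (0.7 for kappa, 0.5 for heavy chains).

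For lambda the ratio put WT CAC mice 5 and 6 with the naive mice. Iglv counts per 100 Iglc counts were 52.1, 50 and 56.0 in naive WT, 33.2, 50.5 and 51.1 in WT CAC, and 32.5, 20.8 and 22.6 in Cldn2TG CAC. Cldn2TG CAC lay below both other groups (exact permutation p = 0.1, adjusted p = 0.367 for each). In mice 7 to 9 the ratio rests on only 25, 11 and 7 Iglv counts and 77, 53 and 31 Iglc counts. Mouse 7 at 32.5 lay hardly below WT CAC mouse 4 at 33.2. No counting interval was computed for this ratio, so the separation from WT CAC is not read as firm. All rows under the count minimum together added at most 68 counts to a mouse.

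**Figure D5:**
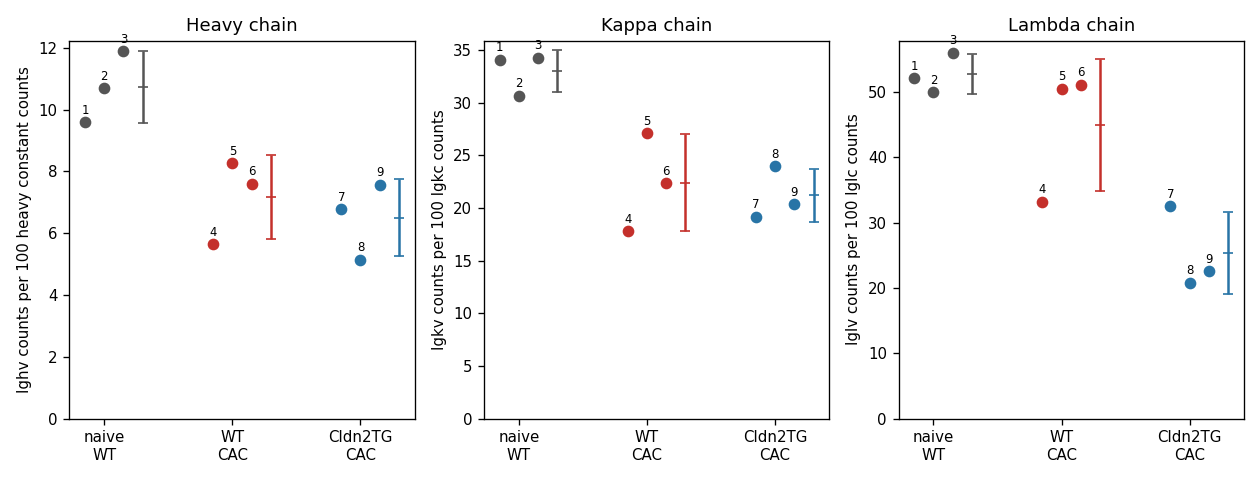
V gene counts per 100 constant gene counts for heavy, kappa and lambda chains, with one numbered point per mouse and the mean with its SD (n = 3) beside each group; axes start at 0. All naive WT mice lie above all AOM-DSS mice for heavy and kappa chains. For lambda all Cldn2TG CAC mice lie below the others, on few counts and with mouse 7 hardly below mouse 4.

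A list of 20 genes of the plasma cell program was set beside the members. For this and the later lists, the edgeR shares over all genes tested serve as a scale. They were 8.04% higher and 6.92% lower in WT CAC against naive WT, and 2.19% and 7.35% in Cldn2TG CAC against WT CAC. In Cldn2TG CAC against naive WT they were 3.92% and 6.07%. Counts near these shares are not read as a result about a list. In WT CAC against naive WT, 4 of 19 tested rose and 0 fell (edgeR; 8 rose and 1 fell at an unadjusted p under 0.05, and DESeq2 called 7 and 0). Mzb1, a chaperone of antibody assembly, had 1.79, 1.10 and 2.02 CPM in naive WT, 6.13, 7.76 and 8.42 CPM in WT CAC, and 2.76, 1.26 and 0.512 CPM in Cldn2TG CAC. It rose by 2.18 ± 0.29 in WT CAC (edgeR adjusted p = 0.00806; up to 0.0430 whichever mouse was left out). Irf4, a transcription factor of plasma cell fate, Tnfrsf13b, the receptor TACI, and Eaf2 rose by 1.69 ± 0.37, 1.80 ± 0.37 and 1.75 ± 0.32 (edgeR adjusted p = 0.0263, 0.0224 and 0.0169; up to 0.101, 0.0943 and 0.0804 without single mice, mouse 2 and mouse 3 among them for each).

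Against WT CAC, 7 of 19 fell in Cldn2TG CAC and 0 rose (edgeR; 9 and 0 at an unadjusted p under 0.05, 7 and 0 by DESeq2). They were Pou2af1, a coactivator of immunoglobulin promoters (log2 fold change -2.69 ± 0.45), Irf4 (-2.46 ± 0.56), Mzb1 (-2.30 ± 0.49), Derl3 (-2.09 ± 0.41), Tnfrsf13b (-2.08 ± 0.48), Slamf7 (-1.96 ± 0.43) and Cd79a (-1.94 ± 0.48). Each of the 7 lost its call on leaving out at least mouse 8 (edgeR adjusted p up to 0.140). Xbp1, Sdc1 and Cd38, which epithelial cells also express, stood at 217.7 to 461.0 CPM in every mouse and did not pass in any comparison. Between Cldn2TG CAC and naive WT, 2 of 18 rose and 0 fell by edgeR, Ssr4 by 0.49 ± 0.11 and Ell2 by 0.40 ± 0.11 (adjusted p = 0.0235 and 0.0372, neither call kept without mouse 1, 2, 3 or 9). The median log2 difference over the list was -0.14. The 7 genes that fell against WT CAC each had a mean below that of naive WT, and none passed here. Pou2af1, for one, had means of 2.70 CPM in naive WT and 1.16 CPM in Cldn2TG CAC. The 2 calls are thus not read as a rise of the program.

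Of 11 genes of IgA transport and plasma cell homing, 3 rose and 2 fell in WT CAC against naive WT, 1 rose and 4 fell in Cldn2TG CAC against WT CAC, and 1, S1pr1, fell in Cldn2TG CAC against naive WT (edgeR), by 1.38 ± 0.27 (adjusted p = 0.0126; 0.0555 without mouse 8). Pigr, the polymeric Ig receptor of the epithelium, fell by 0.67 ± 0.17 in WT CAC against naive WT on the log2 scale (edgeR adjusted p = 0.0369; up to 0.134 without mouse 1, 2, 3 or 6), from 5201.3, 5824.8 and 5232.2 CPM to 2828.8, 4139.6 and 3166.2 CPM. In Cldn2TG CAC it had 5292.1, 4803.4 and 5604.8 CPM, above each WT CAC mouse, and its log2 difference from WT CAC of 0.63 ± 0.18 did not pass (edgeR adjusted p = 0.0587). Ccl28, an epithelial chemokine that draws IgA plasma cells, fell by 0.86 ± 0.15 in WT CAC against naive WT (edgeR adjusted p = 0.0145) and was higher by 0.90 ± 0.15 in Cldn2TG CAC against WT CAC (0.0118). The first call was lost without mouse 1 or 2 (up to 0.0681) and the second without mouse 8 or 9 (up to 0.0632). It had 273.3, 262.7 and 216.7 CPM in naive WT, 138.2, 158.0 and 117.4 CPM in WT CAC, and 289.9, 234.4 and 249.0 CPM in Cldn2TG CAC, so that the WT CAC mice were below all others. Itgb7, the integrin chain for homing to gut, rose by 1.97 ± 0.36 in WT CAC (edgeR adjusted p = 0.0162) and fell by 1.99 ± 0.26 in Cldn2TG CAC against WT CAC (0.00777), without mouse 1 or 2 up to 0.0662 for the first and without mouse 8 or 9 up to 0.0520 for the second, but T cells carry it as well. Cxcr4 and its ligand gene Cxcl12 rose in WT CAC by 1.68 ± 0.45 and 0.78 ± 0.20 (edgeR adjusted p = 0.0436 and 0.0403; up to 0.148 without mouse 2, 3, 5 or 6 and up to 0.147 without mouse 1, 2, 3 or 5). Both fell in Cldn2TG CAC against WT CAC, by 2.58 ± 0.34 and 1.61 ± 0.37 (edgeR adjusted p = 0.00777 and 0.0304; 0.0520 without mouse 8 and up to 0.122 without mouse 5, 8 or 9), as did S1pr1 by 1.80 ± 0.32 (0.0136; up to 0.0801 without mouse 5, 8 or 9).

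Of 15 genes of the germinal centre and class switching, 1 rose and 1 fell among 9 tested in WT CAC against naive WT, 0 rose and 2 fell among 7 in Cldn2TG CAC against WT CAC, and 0 of 9 passed in Cldn2TG CAC against naive WT (edgeR; 0 higher and 2 lower there at an unadjusted p under 0.05, 0 by DESeq2). Over all genes tested, 8.04% were called higher and 6.92% lower in the first comparison, so 1 of 9 each way is near the share of all genes. S1pr2 rose by 0.77 ± 0.22 and Rgs13 fell by 1.12 ± 0.29 in the first comparison (edgeR adjusted p = 0.0487 and 0.0402; up to 0.174 and 0.145 without mouse 1, 2, 3, 5 or 6). Rgs13 did not follow the B cell marker Ms4a1. It was highest in mouse 3 (6.02 CPM) and lowest in mouse 6 (1.77 CPM), where Ms4a1 had 1.12 and 10.9 CPM. Which cells the Rgs13 RNA came from was not tested. Cd40 fell by 2.54 ± 0.45 and Tgfb1, a signal for the switch to IgA, by 0.76 ± 0.17 in the second (edgeR adjusted p = 0.0138 and 0.0273; up to 0.0779 and 0.125 without mouse 7, 8 or 9, and for Tgfb1 also without mouse 5 or 6). Of 8 survival signals for plasma cells, 1 of 6 tested rose, 1 of 6 fell and 1 of 5 rose in the same order. The first, Tnfsf13b, which encodes BAFF, rose by 1.95 ± 0.32 in WT CAC against naive WT (edgeR adjusted p = 0.0129; 0.0602 without mouse 2), while Tnfsf13, which encodes APRIL, gave -0.48 ± 0.20 (0.131). Cd28 fell by 2.66 ± 0.57 in Cldn2TG CAC against WT CAC (edgeR adjusted p = 0.0235; up to 0.116 without mouse 5, 7, 8 or 9). Mcl1, which keeps many cell types alive, rose by 0.65 ± 0.11 in Cldn2TG CAC against naive WT (edgeR adjusted p = 0.00599; up to 0.0247 whichever mouse was left out). On the list of Fc receptors for antibody, which also holds the signalling chain gene Fcer1g, 5 of 9 tested rose in WT CAC against naive WT and 0 fell (edgeR; 7 and 0 at an unadjusted p under 0.05, 6 and 0 by DESeq2). Fcgr3 rose by 2.25 ± 0.44 and Fcgr2b by 1.71 ± 0.34 (edgeR adjusted p = 0.0189 and 0.0198; up to 0.0840 and 0.0854 without mouse 1, 2, 3 or 5, and Fcgr2b also lost its call without mouse 6). Fcer1g, Fcgr4 and Fcgrt rose by 2.11 ± 0.40, 2.30 ± 0.60 and 0.64 ± 0.15 (edgeR adjusted p = 0.0184, 0.0414 and 0.0292; up to 0.0774, 0.144 and 0.115 without mouse 1, 2, 3 or 5, and for Fcgr4 also without mouse 6). In Cldn2TG CAC against WT CAC, 3 of 8 tested fell and 0 rose (edgeR; 5 and 0 at an unadjusted p under 0.05 and by DESeq2). They were Fcgr3 by 2.85 ± 0.48, Fcer1g by 2.78 ± 0.40 and Fcgr2b by 2.57 ± 0.34 (edgeR adjusted p = 0.0121, 0.00863 and 0.00777; up to 0.0724, 0.0565 and 0.0520 without mouse 8 or 9, and for Fcgr3 also without mouse 7). Between Cldn2TG CAC and naive WT 0 of 7 passed (edgeR; 1 higher and 2 lower at an unadjusted p under 0.05, 1 and 0 by DESeq2).

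Markers of other immune cells moved with the immunoglobulin genes. Of 10 T cell markers, 9 rose in WT CAC against naive WT and 8 fell in Cldn2TG CAC against WT CAC, and of 9 macrophage markers 6 rose and 6 fell (edgeR). The summed T cell level ran from 12.8 to 20.1 CPM in naive WT, from 36.8 to 54.5 CPM in WT CAC and from 14.1 to 20.3 CPM in Cldn2TG CAC. Of 4 follicle stroma genes tested, 2 rose in WT CAC against naive WT and 3 fell in Cldn2TG CAC against WT CAC (edgeR). Clu and Mfge8 held most of the summed level of that list. Clu had means of 47.2, 434.6 and 28.6 CPM in naive WT, WT CAC and Cldn2TG CAC, against 3.41, 8.25 and 2.39 CPM for Cxcl13. Which cells these RNAs came from was not tested. Of the 14 B cell markers 0 passed in WT CAC against naive WT and 1, Fcrla, in Cldn2TG CAC against WT CAC (edgeR; 5 higher and 13 lower at an unadjusted p under 0.05, 5 higher and 12 lower by DESeq2). The epithelial list had 0 of 9 called in either comparison (edgeR; 1 in each at an unadjusted p under 0.05; 0 and 1 by DESeq2). Against naive WT, 3 of 7 smooth muscle genes fell in Cldn2TG CAC (edgeR; 7 of 7 at an unadjusted p under 0.05 and by DESeq2), with summed levels of 973.5 to 1499.6 CPM against 2032.9 to 4069.6 CPM. In WT CAC against naive WT, 0 of 7 passed by edgeR, with 2 lower at an unadjusted p under 0.05 and 2 by DESeq2. The summed level there was 3018.9, 1068.5 and 1320.7 CPM in mice 4 to 6. What part muscle content had in the immunoglobulin values was not tested. Between Cldn2TG CAC and naive WT, the macrophage marker Cd14 fell by 0.44 ± 0.11 and the epithelial gene Krt8 rose by 0.43 ± 0.11 (edgeR adjusted p = 0.0274 and 0.0384; up to 0.124 without mouse 2, 3, 8 or 9, and up to 0.144 without mouse 1, 2, 3, 8 or 9). At an unadjusted p under 0.05, 0 macrophage markers were higher and 3 lower, and 2 epithelial genes were higher and 1 lower. DESeq2 called 0 and 2 of the first list and 2 and 0 of the second. Here 0 of 9 T cell and 0 of 11 B cell markers tested passed (edgeR; 0 at an unadjusted p under 0.05 and by DESeq2). What part a general change in immune cells had in the immunoglobulin values was not tested.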

How the data were processed

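Colon RNA of 9 mice in 3 groups of 3 was sequenced on 2 lanes per library. The authors deposited raw read counts per gene in 18 columns, 1 for each lane of each library, with no normalization. The submitters' processing notes name HISAT2, Subread, featureCounts and GRCm38, whereas the study's methods name TopHat2 as the aligner before featureCounts. Strand and multi-mapping settings are not given in the sources used here, so counts of near-identical V genes may be split or lost. The deposited length column, a score of summed exon bases per gene written by featureCounts, was used for levels per kilobase. The table had 47729 rows, 505 of them without a symbol. The treatment protocol in the labels lists AOM and DSS under every sample, and which mice were naive follows only their label Control.

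Lanes were summed. CPM used effective library sizes from edgeR's TMM method. Each comparison was fitted in edgeR 4.0.16 (quasi-likelihood test, R 4.3.3, limma 3.58.1) on its own 6 libraries over all genes kept by filterByExpr, with Benjamini-Hochberg adjustment over all of them and a call at an adjusted p under 0.05. DESeq2 1.42.0 was an alternative. Shares, ratios and sums were compared by two-sided exact permutation tests (scipy 1.17.1 under Python 3.11.15, with pandas 2.3.3 and numpy 2.4.6; figures drawn in matplotlib 3.10.9), whose smallest p with 3 against 3 is 0.1. Shares carry exact Clopper-Pearson 95% intervals, and intervals and floors (3 counts) cover counting error only. Effective numbers are means over 200 thinning draws. P-values measure the spread between these libraries. Fits were tested on simulated counts.

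The members, gene lists and tests were chosen with earlier results of these data known. Genes named were all constant genes and Jchain, the 5 Ighv, 5 Igkv and 3 Iglv genes with the highest mean CPM, per comparison and direction up to 5 called V genes ordered by fold change, the leading V gene of each library and, of each list, its called genes and up to 5 with the highest mean CPM. This rule was not followed for every list gene. T cell, macrophage, follicle stroma and smooth muscle genes are mostly given by counts and summed levels, and abundant list genes that were not called are mostly unnamed. Ighv1-5, Ighv1-66 and the ratios of V to constant counts and of Jchain to Igha, and bounds without single mice, were chosen after their values were seen. Sequences and coordinates come from GENCODE M21 on GRCm38.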

Additional observations from a re-analysis of the deposited data

Results flagged for a closer look

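The 211 rows that matched by name but lay under the minimum of 10 counts entered no comparison of the report. They held a signal in WT CAC above that of the naive group, with a mean of 2.43 CPM summed over the rows. The summed level was 0.796, 1.10 and 1.20 CPM in naive WT mice 1 to 3, 1.25, 2.98 and 3.06 CPM in WT CAC mice 4 to 6, and 0.829, 0.302 and 0.146 CPM in Cldn2TG CAC mice 7 to 9. These levels rest on 16, 22 and 28 counts, on 24, 68 and 45 counts, and on 12, 6 and 2 counts.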

How the results depend on the processing

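No paired analysis was possible because the groups share no replicate numbers. The count of immunoglobulin genes called in WT CAC against naive WT, 12 of 84 tested as reported, was 34 of 84 with DESeq2, 21 of 171 (20 higher and 1, Ighv3-5, lower) with no filter on low counts, 6 of 23 with at least 10 counts in every library, and 3 of 119 to 77 of 117 without single mice. Calls over all genes moved too, from 2310 to 3220, 2490 and 1890 and to between 135 and 4080. In Cldn2TG CAC against WT CAC it was 24 of 57, and 41 of 57 with DESeq2, 3 of 7 with at least 10 counts in every library, 45 of 87 with all 9 libraries in the fit, 12 of 34 and 13 of 29 on lane 1 and lane 2 alone, and 3 of 116 to 77 of 101 without single mice, while all genes gave 1421, 2072, 908, 2136, 1226, 996 and 58 to 2894. In Cldn2TG CAC against naive WT it was 9 of 37, and 32 of 171 with no filter, 0 of 7 with at least 10 counts in every library, 1 of 87 with all 9 libraries, 2 of 17 and 1 of 15 on lane 1 and lane 2 alone, and 2 to 13 of 41 to 53 without single mice, while all genes gave 1501, 2567, 1190, 445, 1131, 1027 and 525 to 1383. Other scalings kept these counts. The cause of these changes was not tested, beyond fewer genes being tested on single lanes and under the stricter filter.

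Of 270 other settings of the 33 group differences, 21 reversed the sign. Without thinning, the effective number of genes in Cldn2TG CAC against WT CAC differed by -8.44 for Ighv and -0.951 for Igkv, and with the inverse Simpson index that of Igkv in WT CAC against naive WT by -0.144. Leaving out single mice, differences in WT CAC against naive WT ran from -4.16 to 5.63 percentage points for the Igha share, -4.07 to 1.28 for Ighm, -0.488 to 2.40 for Ighg and -8.01 to 2.05 for lambda, from -5.11 to 1.17 for effective Ighv genes, -1.84 to 3.30 for effective Igkv genes and -1.25 to 5.37 for Jchain per 100 Igha counts. In Cldn2TG CAC against WT CAC they ran from -2.65 to 3.24 for the Ighg share, -9.24 to 0.815 for lambda, -3.22 to 3.06 for effective Ighv genes, -3.58 to 1.07 for Igkv per 100 Igkc counts and -1.44 to 0.0026 for Ighv per 100 heavy chain constant counts. Against naive WT, the Ighg share of Cldn2TG CAC ran from -1.49 to 4.4.

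Of single genes, log2 differences in Cldn2TG CAC against naive WT without single mice ran from -1.86 to 1.40 for Ighd, -1.49 to 1.18 for Ighg2b, -0.40 to 1.40 for Ighm, -2.29 to 0.54 for Ighv1-26 and -0.95 to 0.39 for Jchain, and in WT CAC against naive WT from -0.31 to 0.61 for Ighv1-18, -0.34 to 1.39 for Igkv1-110, -1.90 to 1.69 for Igkv16-104 and -0.02 to 1.41 for Igkv9-120. Ighm in Cldn2TG CAC against naive WT was -0.10 with library size only, -0.00 with upper quartile scaling and -0.12 on lane 2, Ighv1-26 was 0.10 on lane 1, and Ighv1-18 in WT CAC against naive WT was -0.14 on lane 1. Over 97 gene results, 1110 settings kept the direction and the side of the threshold, 141 lost and 63 gained a call, and 23 reversed. Few immunoglobulin counts limit mice 8 and 9 most, with 64 and 97 Ighv counts.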

Other observations

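The Ighv1 family, the largest of the mouse heavy chain V families, took 50.8%, 54.3% and 56.8% of Ighv counts in naive WT mice 1 to 3, 47.2%, 56.9% and 51.6% in WT CAC mice 4 to 6, and 70.5%, 60.9% and 66.0% in Cldn2TG CAC mice 7 to 9. The Cldn2TG CAC mice lay above all others, although the share rests on 64 Ighv counts in mouse 8 and 97 in mouse 9. This was seen after the values were computed and was not tested.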
